A study of Mus musculus with 4 samples.

Results

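Programmed cell death 1 (PD-1) and its ligands were followed through the immune cells of subcutaneous MC38 tumours, a mouse colon adenocarcinoma model. The genes are Pdcd1, which encodes the receptor PD-1, Cd274, which encodes the ligand PD-L1, and Pdcd1lg2, which encodes the ligand PD-L2. They were picked by symbol from the feature list of the deposited matrices and are 3 of its 31253 features. CD45+ cells were sorted from tumours 16 days after 100000 MC38 cells had been injected into mice 8 weeks old, and were read by droplet single-cell RNA sequencing. Of the 4 libraries, 2 were labelled WT and 2 were labelled cKO for Ufl1, all listed as untreated. Ufl1 encodes the ligase that attaches the ubiquitin-like protein UFM1 to its targets. By its title, the series concerns T cells that lack UFL1 and the UFMylation of the PD-1 protein, a modification that RNA counts do not measure. The labels give neither the Cre driver, the exons removed nor the mouse strain. Whether the libraries stand for separate animals is not stated, so p-values measure only the spread between these libraries. Between the 2 WT libraries that spread may be technical, whereas the 2 cKO libraries differed in sex-linked RNA, as given below.

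PD-1 appears on T cells after activation and stays on cells that meet antigen for long. When a ligand binds, phosphatases such as SHP-2 are recruited to the tail of PD-1 and damp signals from the T cell receptor and from CD28. PD-L1 is carried by many cell types and is induced by interferon gamma, whereas PD-L2 is known mainly from dendritic cells and macrophages.

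After filtering, 30279 cells remained, between 6845 and 8657 per library, at median depths from 7002 to 8151 UMIs per cell (UMI, unique molecular identifier, which counts 1 captured transcript). Ptprc, which encodes CD45, had a UMI in 80.8% to 87.8% of cells. Epcam, Krt8, Krt18, Col1a1, Col3a1, Pecam1 and Cdh5, listed here for tumour and stromal cells, summed to 23.9 to 36.3 CPM (counts of UMIs per 1000000 UMIs of the library, or of the class where one is named). Most of that sum was Pecam1, at 14.0 to 24.8 CPM, and Epcam, at 5.79 to 8.91 CPM. Clusters were named from marker genes, and "X-like" marks such a name. There were 19 named classes, of which 17 had at least 20 cells in every library and were compared between genotypes. Where 4 values stand in a row they belong to WT replicate 1, then 2, then cKO replicate 1, then 2. cKO replicate 2 stood apart in sex-linked RNA, with 12 UMIs of the Y-linked gene Ddx3y against 3270 to 3923 in the other libraries. Its level of the X-linked gene Xist was 298 CPM, against 0.1255 to 0.904 CPM in the others. Sex-linked RNA was thus not balanced between the genotypes. WT replicate 1 and cKO replicate 2 shared 479 cell barcodes and every other pair of libraries 85 to 104. In 385 of the 479 the shallower copy held under 1000 UMIs. All cells with a barcode seen in more than 1 library, 1626 in number, were therefore left out in a second run, and its values stand beside the results below.

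Ufl1, the targeted gene, was at 16.9, 19.6, 21.3 and 18.3 CPM in CD8 T-like cells (scaled by TMM, edgeR's library scaling). The log2 ratio of cKO over WT was 0.07 ± 0.25 (SE, n = 2 libraries per group). Over all T-like cells it was 0.01 ± 0.19, from 16.0, 17.1, 14.3 and 18.9 CPM. These values check nothing about the ablation, because a transcript that has lost some exons can still be counted.

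Pdcd1, the receptor gene, was read mainly in T cells. The raw level in CD8 T-like cells was 297, 833, 532 and 635 CPM, or 574 ± 223 (SD, n = 4 libraries). WT replicate 1 was the lowest and WT replicate 2 the highest, so both cKO libraries lay between the WT ones. Treg-like cells, the regulatory T cells that carry Foxp3, had 353, 531, 412 and 667 CPM (491 ± 139). The order of these classes was not fixed: CD8 T-like cells were above Treg-like cells in 2 of 4 libraries. Gamma-delta T-like cells, led by Il17a and the receptor segment Trgc1, had 339, 317, 275 and 459 CPM (348 ± 78.9). They were below Treg-like cells in all 4 libraries, although the ranges over libraries overlapped. Cycling T-like cells had 76.5, 191, 142 and 321 CPM (183 ± 103) and conventional CD4 T-like cells 114, 137, 113 and 92.0 CPM (114 ± 18.3). The first clear step in the order came next: unresolved T-like cells, led by Lef1 and Tcf7, genes of resting T cells, were at 37.2 ± 9.16 CPM and below CD4 T-like cells in every library without overlap. Without the shared barcodes the means were 574 CPM in CD8 and 499.9 CPM in Treg-like cells.

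**Figure D1:**
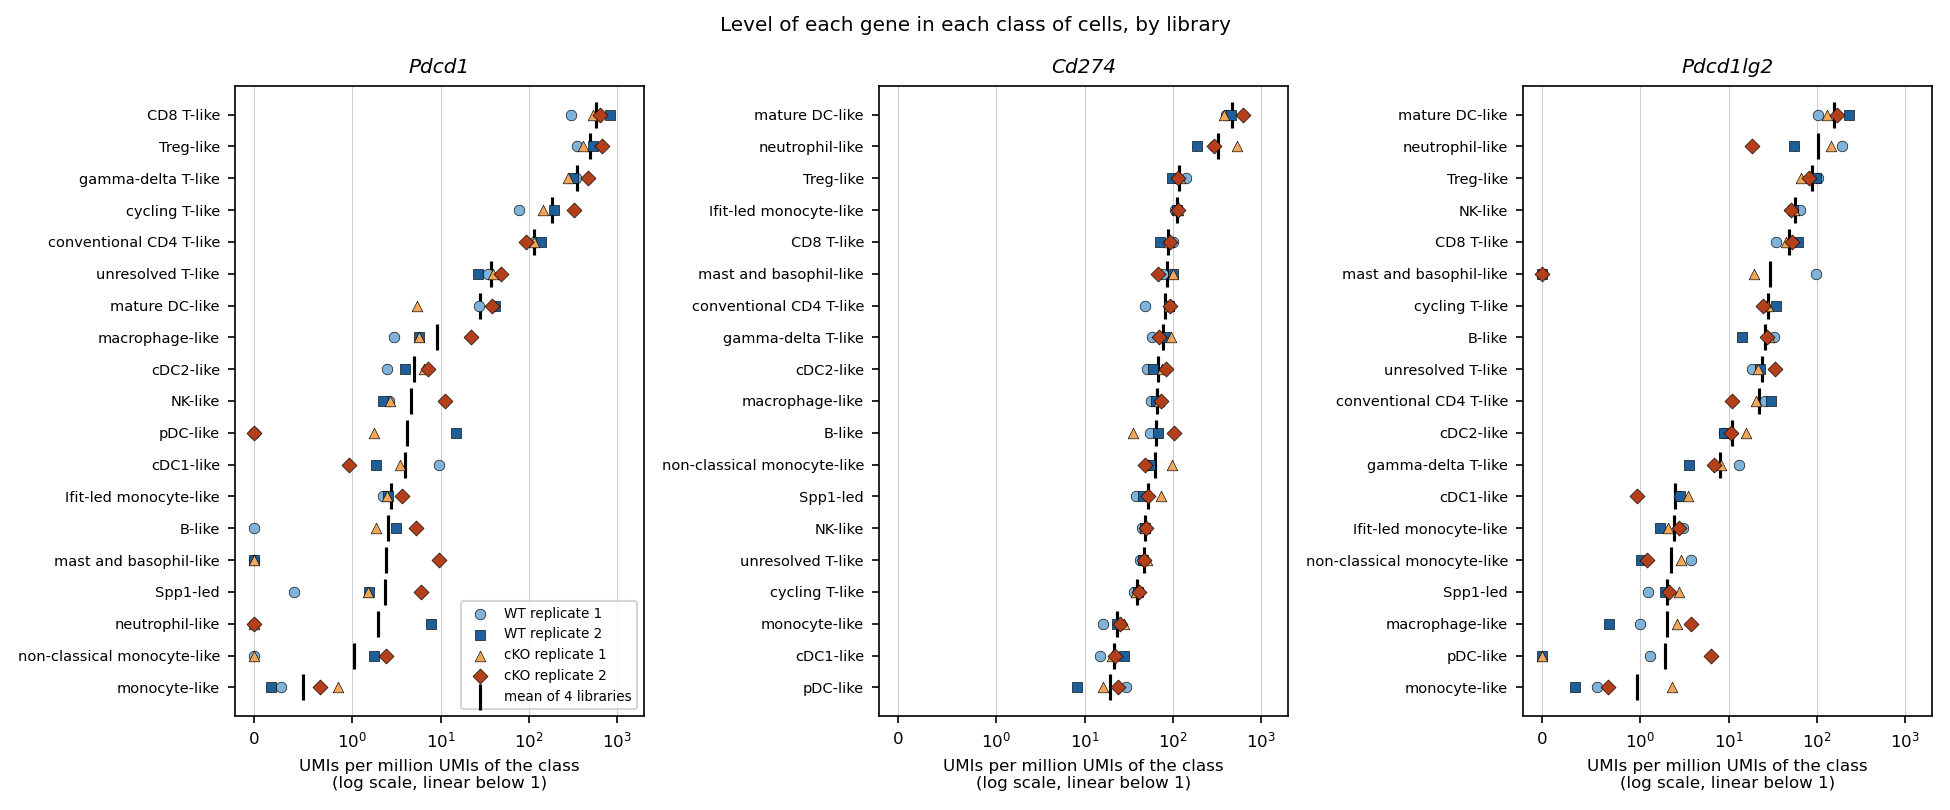
Level of Pdcd1, Cd274 and Pdcd1lg2 in CPM (horizontal, log scale, linear below 1) in each of the 19 named classes (vertical, ordered by mean), with 1 symbol per library and a bar at the mean of 4 libraries. Pdcd1 spans from 0.493 CPM in monocyte-like to 574 CPM in CD8 T-like cells, whereas the mean of Cd274 lies between 19.3 and 461 CPM in all classes.

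The share of cells with a transcript was read beside the level. At least 1 UMI of Pdcd1 was found in 41.2%, 74.8%, 66.0% and 62.6% of CD8 T-like cells, at median depths of 5459, 8287, 8700 and 6859 UMIs. Thinned to 2000 UMIs per cell, the shares were 25.6%, 59.7%, 50.4% and 44.1%, with the libraries in the same order. That order was not that of the level, since cKO replicate 1 had a higher share but a lower level than cKO replicate 2. As a low reference for free RNA, the class with the least Pdcd1, monocyte-like cells, had a UMI in a mean of 0.480% of cells, from 0.149% to 0.817% by library, at a median depth of 9355 UMIs, although no class is certain to lack PD-1. The CD8, Treg, gamma-delta, cycling and CD4 T-like shares were all far above it. Cells of 1 library are not replicates, so counting error is the only error that an interval on such a share would cover.

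The spread of Pdcd1 among CD8 T-like libraries went with the make-up of the class. It held a cluster led by Gzmk, the granzyme of early effector and memory CD8 cells, and a cluster whose leading genes were Pdcd1, the co-receptor gene Cd8a and Lag3, another inhibitory receptor. Within the Pdcd1-led cluster the level was 791, 1008, 823 and 945 CPM, and at least 95.3% of its cells in each library had a UMI of Pdcd1. The Gzmk-led cluster had 192, 293, 262 and 167 CPM. The cluster with high Pdcd1 made up 8.48%, 62.4%, 32.0% and 43.1% of CD8 T-like cells, from only 14 cells in WT replicate 1 to 332 in WT replicate 2. It supplied 46.5%, 91.3%, 74.4% and 89.5% of the Pdcd1 UMIs of the class. The variable genes behind the clusters did not include Pdcd1, but they included genes that move with it, so the contrast between clusters is a description. WT replicate 1 and cKO replicate 1 also held few CD8 T-like cells, 2.41% and 2.06% of cells against 6.15% and 6.53% in the other 2 libraries.

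**Figure D2:**
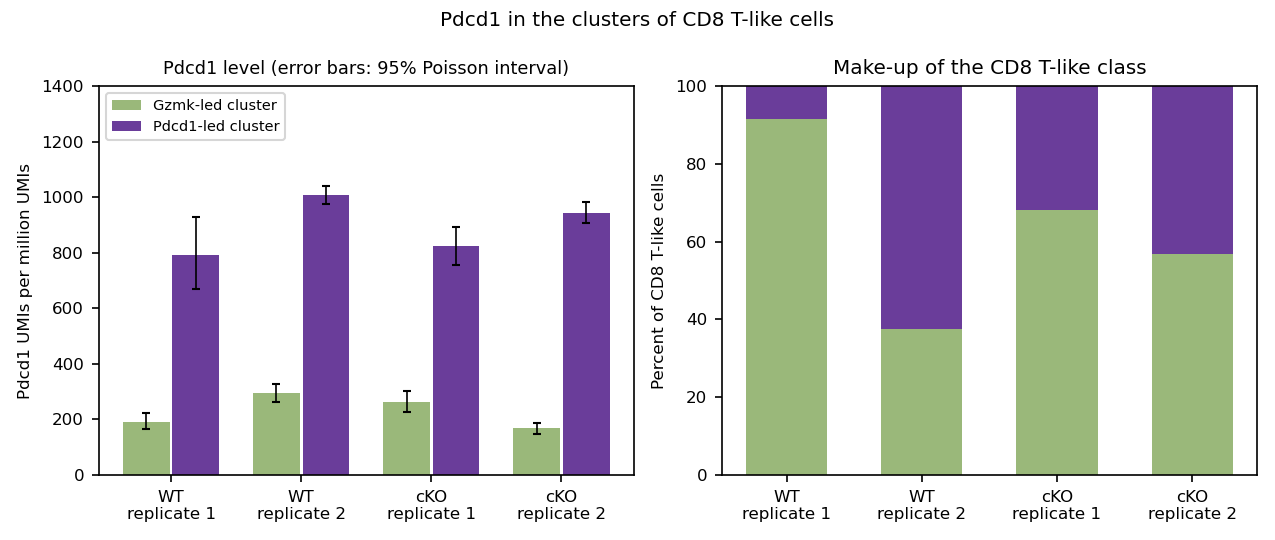
Left, Pdcd1 in CPM (vertical) in the Gzmk-led and the Pdcd1-led cluster of CD8 T-like cells by library, with 95% Poisson intervals for counting error; right, the percent of CD8 T-like cells in each cluster. The level within the Pdcd1-led cluster lies between 791 and 1008 CPM while its share runs from 8.48% to 62.4%.

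Outside T cells Pdcd1 was low, and T cell transcripts were read in the same classes. NK-like cells had 2.58, 2.22, 2.65 and 11.2 CPM, and macrophage-like cells 2.99, 5.61, 5.62 and 21.9 CPM. In both classes cKO replicate 2 was the highest. The macrophage-like cells also held 139, 194, 470 and 853 UMIs of the T cell genes Cd3e and Cd3d together, beside 12, 58, 52 and 129 UMIs of Pdcd1. Their Pdcd1 UMIs per 100 of these Cd3 UMIs came to 15.2, within the span of T-like classes (2.44 in unresolved T-like to 31.3 in CD8 T-like cells). Among them, cells with both Pdcd1 and Tigit, an inhibitory receptor of T and NK cells, were 3.84 times the number that equal depth gives. The part of T cell RNA in these values was not tested. Mature DC-like cells, the dendritic cells that carry Ccr7 and Fscn1, had 63 Pdcd1 UMIs beside 41 Cd3 UMIs, or 154 per 100. By library this was 900, 425, 42.9 and 89.3 per 100, on only 2 to 28 Cd3 UMIs. Pooled over libraries, cDC1-like (47.9 per 100) and pDC-like cells (34.3) were above CD8 T-like cells in this measure as well. Both values rested on few UMIs, and neither order held in every library. In cDC1-like cells 14 of the 23 Pdcd1 UMIs came from WT replicate 1. Only in cKO replicate 2 was the cDC1-like value below that of CD8 T-like cells (3.45 against 30.8 per 100). In pDC-like cells the Pdcd1 UMIs were 0, 11, 1 and 0 by library. Their value was above that of CD8 T-like cells only in WT replicate 2 and cKO replicate 1. The Pdcd1 level of mature DC-like cells was 27.3, 41.6, 5.36 and 37.9 CPM (28 ± 16.3), and cKO replicate 1, with 3 UMIs, was the low one.

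The ligand genes are neighbours. In GRCm38 with GENCODE M21 annotation, Cd274 lies at chr19:29367455-29388095 and Pdcd1lg2 at chr19:29410919-29471161, both on the plus strand and 22.8 kb apart, while Pdcd1 lies at chr1:94038305-94052553 on the minus strand. The build used by the authors was not given in the sources used here. The 250 bases before each ligand gene's start, from RefSeq on GRCm38.p6, are shown because the levels of these neighbours part below. Capitals mark a match to 1 of the motifs searched.
Cd274, chr19:29367188-29367437, plus strand: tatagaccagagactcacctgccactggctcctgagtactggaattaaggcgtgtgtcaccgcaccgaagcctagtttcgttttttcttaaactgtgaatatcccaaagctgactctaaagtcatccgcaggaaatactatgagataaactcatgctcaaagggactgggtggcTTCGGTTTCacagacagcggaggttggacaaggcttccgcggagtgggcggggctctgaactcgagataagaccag
Pdcd1lg2, chr19:29410669-29410918, plus strand: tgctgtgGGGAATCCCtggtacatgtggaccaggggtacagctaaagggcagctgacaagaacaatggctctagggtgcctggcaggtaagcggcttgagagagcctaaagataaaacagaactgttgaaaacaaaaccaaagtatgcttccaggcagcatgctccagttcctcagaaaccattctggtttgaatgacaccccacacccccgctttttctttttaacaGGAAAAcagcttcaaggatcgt
On both strands, 5 motifs were searched. They were the core of the interferon-stimulated response element, GAAANNGAA, held by 7.15% of 32536 windows of this length, and the gamma-activated sequence TTCNNNGAA, held by 7.04%. The AP-1 element TGANTCA was in 6.73%, the NF-kB element GGNNTTNCC in 13.5% and the NFAT core GGAAAA, whose letters GAAA open the first motif, in 20.4%. The first and the NF-kB motif were shortened to these letters after forms 1 base longer had matched in none of the windows of the 3 genes. The Cd274 window held the interferon core on its minus strand, 76 to 68 bases before the RefSeq start, which lies upstream of the GENCODE start given above. The Pdcd1lg2 window held the NF-kB element on its minus strand, 243 to 235 bases before the start, and GGAAAA on its plus strand 22 to 17 bases before it. The Pdcd1 window held none of these letters. A match is a description of letters and says nothing of the factors.

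Cd274, the PD-L1 gene, was read in every class. Mature DC-like cells were the highest of the fitted classes with 401, 452, 375 and 617 CPM (461 ± 109), and 72.3%, 77.6%, 58.8% and 78.5% of them had a UMI. Thinned to 2000 UMIs per cell, the shares were 47.6%, 51.7%, 31.9% and 54.9%. cKO replicate 2 was the highest and cKO replicate 1 the lowest, so the genotypes overlapped. Neutrophil-like cells had 324 ± 145 CPM but only 10 to 40 cells per library, and were not fitted. Treg-like cells followed with 139, 96.6, 119 and 114 CPM (117 ± 17.3), and an Ifit-led monocyte-like class, whose leading genes such as Rsad2 and Cxcl10 are induced by interferon, with 105, 111, 115 and 115 CPM (112 ± 4.79). Those monocytes had the narrowest spread of the 5 highest classes and lay above CD8 T-like cells (88.8 ± 12.9 CPM) in all 4 libraries without overlap. Monocyte-like cells, led by Hp, F13a1 and Chil3, were at 23.0 ± 5.07 CPM, also apart from the Ifit-led class in every library. No class is known to lack Cd274, and the 13.8% ± 3.58 of monocyte-like cells with a UMI, at a median depth of 9355 UMIs, stands as a low reference.

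Within the macrophage-like class Cd274 differed by cluster. The cluster led by Mmp12, a secreted elastase of tissue macrophages, had 140, 177, 177 and 179 CPM. The clusters led by haemoglobin and complement genes and by cell cycle genes had 17.7 to 36.4 CPM over libraries. A last cluster, led by C1qa and Tmem119, had 40.5 to 83.0 CPM. The ranges of the Mmp12-led cluster and of the other 3 did not overlap. cDC2-like cells, the type 2 dendritic cells led by Cd209a, were at 51.2, 58.8, 74.6 and 83.1 CPM, and NK-like cells at 47.6 ± 2.26 CPM. The lowest values were 21.3 CPM in cDC1-like and 19.3 CPM in pDC-like cells. Across all 32 clusters the Cd274 level went down with the median depth of the cluster (Spearman's rho -0.498, a description over clusters that share libraries), and for Pdcd1 rho was -0.0394.

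Pdcd1lg2, the PD-L2 gene, was also highest in mature DC-like cells among the fitted classes, at 103, 227, 129 and 167 CPM (156 ± 53.9), with 39.4%, 49.3%, 40% and 54.4% of cells carrying a UMI (15.5%, 30%, 24.6% and 23.9% thinned). Neutrophil-like cells, few in number, had 102 CPM, from 18.3 to 192 by library, and mature DC-like cells were above them in 2 of 4 libraries. The rest of its order differed from that of Cd274. Treg-like cells had 103, 97.5, 65.8 and 81.7 CPM (86.9 ± 16.7), above NK-like cells with 64, 54.1, 55.6 and 50.4 CPM (56.0 ± 5.74) in every library without overlap. CD8 T-like cells had 34.5, 61.4, 44.5 and 52.7 CPM. Here the Pdcd1-led cluster, described above for the receptor, was at 80.2, 75.0, 74.1 and 79.2 CPM and the Gzmk-led cluster at 24.9, 19.7, 16.9 and 12.7 CPM. Within CD8 T-like cells the PD-L2 transcript was thus higher in the cluster with more receptor transcript, in all 4 libraries. Monocyte-like, non-classical monocyte-like, macrophage-like, Spp1-led and Ifit-led cells were near the floor, between 0.962 CPM in monocyte-like and 2.39 CPM in Ifit-led monocyte-like cells. The share of monocyte-like cells with a UMI was 0.782%.

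The ratio of the ligand transcripts differed widely between classes, and within T cells too. For every 100 UMIs of Cd274 there were 121 of Pdcd1lg2 in NK-like cells, 117 in the Pdcd1-led CD8 cluster, 78.4 in Treg-like, 32.2 in mature DC-like and 16.2 in cDC2-like cells. Other T cells were lower, with 25.1 in conventional CD4 T-like cells, 15.6 in the Gzmk-led CD8 cluster and 10.3 in gamma-delta T-like cells. The same ratio was 3.78 in the Spp1-led class (led by Spp1 and Arg1, and left without a cell type name), 2.92 in macrophage-like and 2.14 in Ifit-led monocyte-like cells. Both genes count in 1 library scale, so these are ratios of UMIs and not of protein.

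Abundance changed which cells supplied the transcripts. CD8 T-like cells were 4.29% of cells and gave 46.6% ± 16.7 of Pdcd1 UMIs (SD, n = 4), and Treg-like cells gave 11.5%. Mature DC-like cells, 1.07% of cells, gave 6.05% of Cd274 and 7.49% of Pdcd1lg2 UMIs. On the mean of 4 libraries the largest source of Cd274 was the Ifit-led monocyte-like class with 20.4%, from 11.9% to 33.3% by library, ahead of the Spp1-led (12.0%), cDC2-like (11.9%) and macrophage-like (10.9%) classes. In WT replicate 1 it came after cDC2-like (15.6%), NK-like (15.6%) and Spp1-led cells (14.5%). NK-like cells gave 40.5% of Pdcd1lg2 UMIs, from 25.7% to 60.0%. These parts rest on the shares of cells as well as on levels, and Ifit-led monocyte-like cells were 4.85%, 8.53%, 8.40% and 16.3% of all cells by library.

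Single cells showed whether the genes were read together. Expected numbers were taken from the margins within 10 bins of depth in each library, and there is no test, because cells of 1 library are not replicates. In cDC2-like cells 158 cells held both ligand transcripts where 89.9 were expected, a ratio of 1.76 that was above 1 in 4 of 4 libraries (1.64 to 2.06), and 72.1% of the cells with Pdcd1lg2 also had Cd274. The Spp1-led class had 38 such cells where 19.9 were expected (1.91, 4 of 4 libraries) and NK-like cells 466 where 404 were expected (1.15, 4 of 4). Mature DC-like cells, in which both genes were frequent, had 121 where 115 were expected (1.05). There, 83.4% of the cells with Pdcd1lg2 carried Cd274, but thinned to 2000 UMIs the ratio was 0.793. CD80, the CD28 ligand that also binds PD-L1 on the same cell, was likewise read together with Cd274 in cDC2-like cells (324 cells, 265 expected, 1.22) and in mature DC-like cells (157 cells, 147 expected, 1.07), 4 of 4 libraries in both.

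The receptor and PD-L1 transcripts met in T cells about as often as their margins give. Among CD8 T-like cells 395 held Pdcd1 and Cd274 where 381 were expected (1.04, above 1 in 3 of 4 libraries), and thinned the ratio was 0.961. In Treg-like cells the ratio was 0.941. Pdcd1 and Pdcd1lg2, a pair added after the other pairs had been seen, gave 324 CD8 T-like cells where 295 were expected (1.10, 4 of 4), and 1.01 when the expectation was taken within each cluster.

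Pdcd1 was read together with the other inhibitory receptor genes. In CD8 T-like cells the ratio was 1.14 with Lag3, 1.14 with Havcr2 (which encodes TIM-3), 1.08 with Tigit, 1.13 with Ctla4 and 1.13 with Tox, the transcription factor of exhausted T cells, each above 1 in 4 of 4 libraries. Of the CD8 T-like cells with Havcr2, 90.4% had Pdcd1, and of those with Lag3, 86.5%. Taken within the clusters the ratios were nearer to 1, at 1.05, 1.01, 1.04, 1.05 and 1.06. Cycling T-like cells had higher ratios for Havcr2 (1.84), Ctla4 (1.60) and Lag3 (1.38). That class was 1 cluster, with Cd8a at 300, Cd4 at 23.9, Foxp3 at 17.1, Trdc at 15.5 and the NK gene Ncr1 at 88.8 CPM. The part of a mix of cell types in its ratios was not tested. In Treg-like cells Ctla4 was in 521 of 568 cells and its ratio with Pdcd1 was 1.00, while Lag3 gave 1.21 and Tox 1.20.

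**Figure D3:**
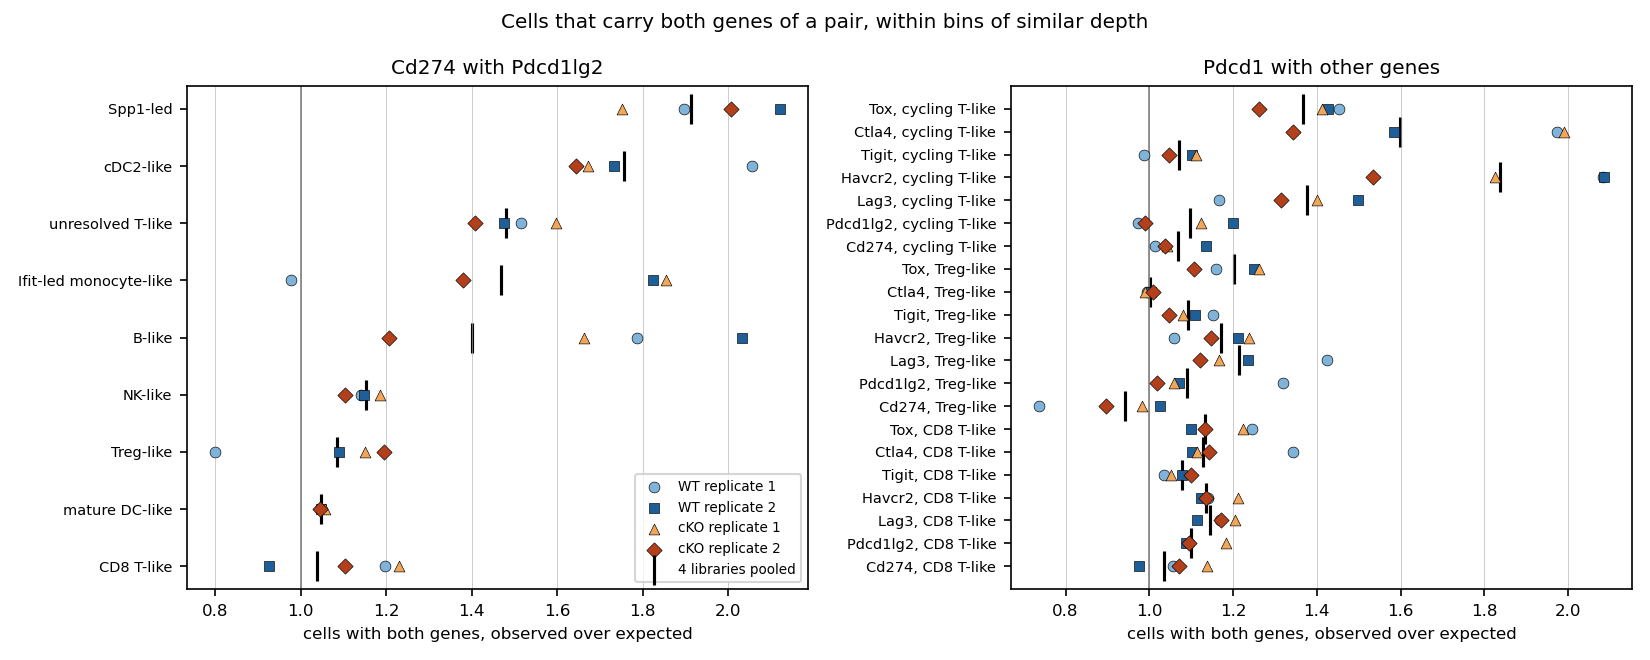
Number of cells with both genes of a pair over the number expected within bins of similar depth (horizontal), with 1 symbol per library and a bar for the 4 libraries pooled; left, the ligand pair by class, right, Pdcd1 with other genes in 3 T-like classes. The ligand pair reaches 1.76 in cDC2-like and 1.91 in Spp1-led cells and stays at 1.04 in CD8 T-like cells.

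The comparison of cKO with WT asked whether the transcripts of the receptor and its ligands differed in each class between the libraries labelled cKO for Ufl1 and those labelled WT. None of 41 tests of the 3 genes in 17 classes passed an adjusted p of 0.05 by edgeR's quasi-likelihood test with Benjamini-Hochberg adjustment over all genes of a class. At an unadjusted p under 0.05 there were 8, and DESeq2 also called 0. The 8 were 19.5% of the 41 tests, against 3.77% of all tests of all genes in these classes. Of all genes tested, 0.0283% passed the adjusted threshold in Treg-like, 0.0403% in cDC1-like, 0.0128% in conventional CD4 T-like and 0.0179% in mature DC-like cells, and 0% in every other class and in all cells together. The classes share their 4 libraries, so counts over classes are not independent. Without the shared barcodes none passed either, and the log2 ratio of cKO over WT was -0.04 for Pdcd1 in CD8 T-like cells, 0.48 for Cd274 in cDC2-like cells and 0.58 for Cd274 in the Spp1-led class, against -0.03, 0.49 and 0.57 with them. In 15 of the 41 tests the WT and cKO libraries did not overlap, 12 with cKO higher and 3 with cKO lower. That is 36.6% of them, against 31.9% of all tests in the same classes. Pdcd1 passed the filter on low counts in 12 classes, Cd274 in 17 and Pdcd1lg2 in 12, and the smallest adjusted p was 0.711, 0.865 and 0.356.

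In the 5 T-like classes with the highest Pdcd1 levels the WT and cKO libraries overlapped. In CD8 T-like cells the scaled values were 298, 864, 544 and 608 CPM and the log2 ratio of cKO over WT was -0.03 ± 0.42 (SE), with a 95% interval of the fold from 0.491 to 1.97. That interval holds both a drop and a gain of nearly 2-fold. WT replicate 2 alone moved the estimate to 0.96 when it was left out, and WT replicate 1 to -0.59. The ratios were 0.24 ± 0.27 in Treg-like, 0.21 ± 0.25 in gamma-delta, 0.69 ± 0.42 in cycling and -0.31 ± 0.19 in conventional CD4 T-like cells. Without cKO replicate 2, the library that stood apart in sex-linked RNA, the Treg-like and the gamma-delta ratio turned to -0.17 and -0.20 and the ratio in cycling T-like cells to 0.01. Cycling T-like cells passed the adjusted threshold without WT replicate 2 (1.54, adjusted p = 0.0454 by edgeR). In the Gzmk-led CD8 cluster alone the ratio was -0.26 ± 0.26, and the Pdcd1-led cluster, with 14 cells in WT replicate 1, was not fitted.

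The WT and cKO values of Pdcd1 did not overlap in 4 classes, all with cKO higher: unresolved T-like (34.2, 28.1, 39.6 and 47.3 CPM, log2 ratio 0.52 ± 0.21), cDC2-like (2.42, 4.15, 6.45 and 6.96 CPM, 1.07 ± 0.31), macrophage-like (2.97, 5.73, 5.81 and 20.9 CPM, 1.46 ± 0.58) and NK-like cells (2.57, 2.33, 2.64 and 10.8 CPM, 1.28 ± 0.61). Of all genes tested, 35.5% did so in unresolved T-like, 32.9% in cDC2-like, 35.9% in macrophage-like and 35.6% in NK-like cells, in either direction, so such a pattern is common here. In cDC2-like cells the UMIs of Cd3e and Cd3d were 52, 76, 142 and 259 and those of Pdcd1 24, 30, 42 and 54, and their part in the ratio was not tested. cKO replicate 2 carried much of the value in macrophage-like and NK-like cells, where 129 and 61 Pdcd1 UMIs came from it. In both classes cKO replicate 1 lay barely above the higher WT library (5.81 against 5.73 CPM and 2.64 against 2.57 CPM). Of the 129 macrophage-like UMIs, 121 were in the cluster led by C1qa and Tmem119. In NK-like cells 54 of the 61 were in 5 cells of 1 cluster, and the share of NK-like cells with a UMI was 0.952%, 1.12%, 1.43% and 1.68%. In the Spp1-led class the values were 0.403, 1.61, 1.54 and 5.73 CPM (1.87 ± 0.72), on 5, 16, 15 and 45 UMIs, and the genotypes overlapped. Without cKO replicate 1 the ratios in macrophage-like, NK-like and Spp1-led cells were 2.13, 2.11 and 2.57, on 1 cKO library whose spread is assumed to be that of the others.

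Cd274 had the most even estimates. The log2 ratio was above 0 in 15 of 17 classes, with a median of 0.145, and none passed the adjusted threshold. Several of these were small beside their standard error, such as cDC1-like (0.04 ± 0.34), pDC-like (0.08 ± 0.54) and CD8 T-like cells (0.09 ± 0.21). How often other genes reach such a count in classes that share 4 libraries was not computed. In cDC2-like cells the values were 50.4, 61.3, 75.3 and 80.7 CPM, a ratio of 0.49 ± 0.13 (unadjusted p = 0.00586, adjusted p = 0.985 by edgeR's quasi-likelihood test). In the Spp1-led class they were 37.3, 47.7, 74.6 and 50.9 CPM (0.57 ± 0.19, adjusted p = 0.865). Both cKO libraries were above both WT libraries in these 2 classes and in macrophage-like (0.21 ± 0.13), monocyte-like (0.37 ± 0.22) and conventional CD4 T-like cells (0.34 ± 0.25). That held for 32.8% of all genes in the Spp1-led class, 30.1% in monocyte-like and 31% in CD4 T-like cells in either direction. The Ifit-led monocyte-like class, the largest source of Cd274 in 3 of 4 libraries, gave 103, 117, 116 and 112 CPM and a ratio of 0.04 ± 0.11, whose 95% interval of the fold ran from 0.864 to 1.23. On raw CPM, without the TMM scaling, its cKO libraries (115 and 115) lay just above its WT libraries (105 and 111). Mature DC-like cells gave 0.25 ± 0.29, which was -0.14 without cKO replicate 2, and NK-like cells 0.03 ± 0.12, which was -0.02 without the shared barcodes. Non-classical monocyte-like cells gave 0.35 ± 0.28 and passed the threshold without cKO replicate 2 (0.85, adjusted p = 0.0405 by edgeR).

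Pdcd1lg2 pointed both ways, with 6 estimates above 0 and 6 below. Treg-like cells had 103, 105, 66.6 and 83.8 CPM (-0.46 ± 0.25) and NK-like cells 63.8, 56.6, 55.3 and 48.7 CPM (-0.21 ± 0.13), both cKO libraries lying below both WT libraries, as did 30.9% of all genes or their mirror image in Treg-like cells. Conventional CD4 T-like cells were lower as well (-0.86 ± 0.36, 13 to 35 UMIs per library). The other direction was seen in cDC2-like cells with 8.76, 9.14, 15.7 and 10.2 CPM (0.52 ± 0.23), and in macrophage-like cells with 4, 7, 24 and 22 UMIs (1.94 ± 0.47, adjusted p = 0.356 by edgeR). Of these 57 macrophage-like UMIs, 32 were in the cluster led by C1qa and Tmem119, where they numbered 1, 1, 13 and 17 by library. The UMIs of Cd3e and Cd3d in that cluster were 54, 106, 276 and 684, and their part in the ratio was not tested. The Spp1-led class, at 1.21, 2.01, 2.77 and 2.04 CPM (0.61 ± 0.40), also had both cKO libraries above both WT libraries. Mature DC-like cells had 103, 237, 136 and 172 CPM (-0.11 ± 0.36), and WT replicate 2 moved this to 0.60 when left out. The clusters of the NK-like class did not all go the way of the class. Those led by Gzma and Klra4 (-0.24 ± 0.16), by Ccl5 and Gzma (-0.48 ± 0.24) and by Gzmc and Xcl1 (-0.21 ± 0.14) were below 0. The NK-like cluster led by Gzmb had 44.4, 37.9, 65.1 and 50.3 CPM (0.47 ± 0.23), with both cKO libraries above both WT libraries.

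**Figure D4:**
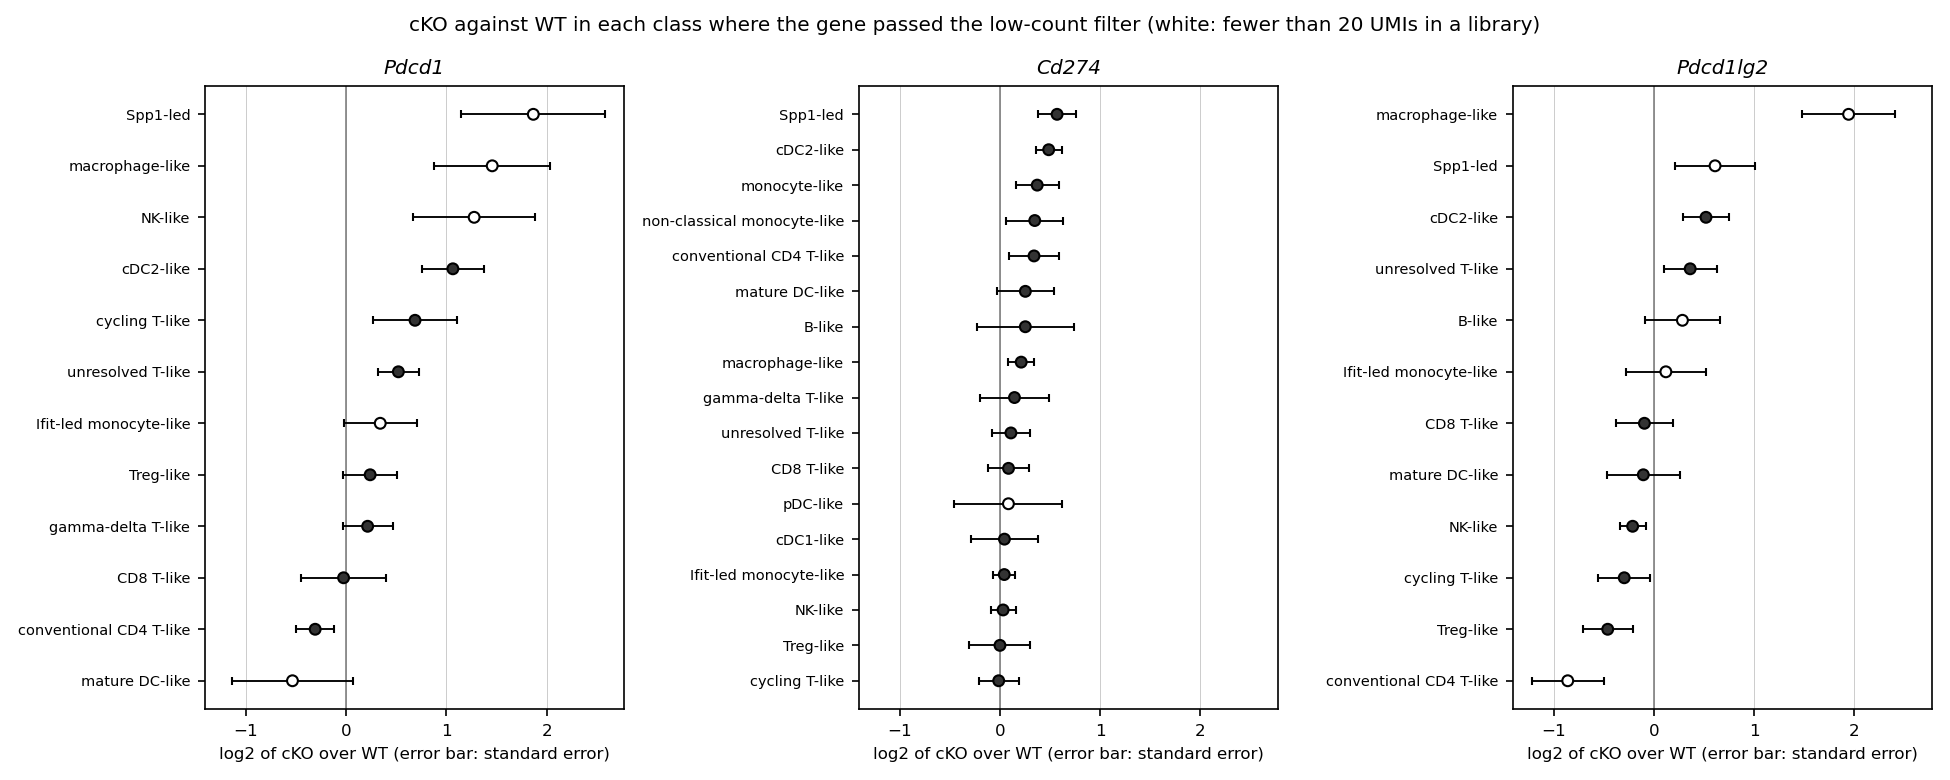
Log2 ratio of cKO over WT with its standard error (horizontal) for each gene in each class where it passed the low-count filter (vertical); white symbols mark classes with fewer than 20 UMIs in a library. None of the 41 estimates passed an adjusted p of 0.05, and Cd274 lies above 0 in 15 of 17 classes, which share their 4 libraries.

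The effects were not shown to differ between classes. For each gene the class with the highest level was set against the next 2 fitted classes in an interaction fit, 6 tests with an adjusted p of 1 each (edgeR, library as a block). The effect on Pdcd1 in CD8 T-like minus that in Treg-like cells was -0.12 ± 0.30 on the log2 scale. The effect on Cd274 in mature DC-like minus that in Ifit-led monocyte-like cells was 0.21 ± 0.32.

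Over all cells together, Cd274 was at 55.9 and 62.5 raw CPM in the WT libraries and at 74.9 and 82.8 in the cKO libraries (59.2 ± 4.69 against 78.8 ± 5.61, SD, n = 2). The difference of 19.6 CPM was 18.5 CPM without the shared barcodes and 15.7 CPM without cKO replicate 2. The cKO libraries were above the WT libraries, as were 27.3% of all genes in either direction, and the exact two-sided permutation p was 0.33, the smallest that 2 against 2 libraries can give. edgeR gave a log2 ratio of 0.38 ± 0.13 with an adjusted p of 1.00. Such a total mixes the make-up of the sample with the level per cell, and more cells of a type and more RNA per cell cannot be told apart in it. Total Pdcd1 was 19.0, 87.2, 33.2 and 73.6 CPM and total Pdcd1lg2 20.9, 16.8, 19.7 and 15.4 CPM, both overlapping between genotypes.

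The pathway around the receptor was read in CD8 T-like cells from 4 lists with 55 tested genes, none of which passed the adjusted threshold and none an unadjusted p under 0.05, against 1.14% of all genes. PD-1 signalling (15 genes) had a median log2 ratio of -0.0652, with Cd28, the costimulatory receptor that PD-1 signalling targets, at -0.30 ± 0.22, Cd247, a signalling chain of the T cell receptor, at -0.28 ± 0.23 and Pik3r1, a subunit of PI3 kinase, at -0.18 ± 0.19. Regulators of Pdcd1 transcription (18 genes) had a median of 0.00478, with Nr4a2 at -0.21 ± 0.16, Bcl6 at -0.70 ± 0.61 and Prdm1, which encodes BLIMP-1, at 0.29 ± 0.26. The list of PD-1 protein turnover (14 tested) had a median of -0.0661. In it Ufc1, which encodes the UFM1-conjugating enzyme, had 107, 105, 85.3 and 87.3 CPM (-0.29 ± 0.16). Ddrgk1, which encodes a partner of UFL1, was at -0.24 ± 0.20 and the deubiquitinase gene Usp12 at 0.35 ± 0.30. The co-inhibitory receptors (8 genes) had a median of 0.0715, with Cd160 at -0.36 ± 0.23, Tigit with 326, 314, 295 and 249 CPM at -0.24 ± 0.16, and Btla at 0.76 ± 0.66. The median of all genes was -0.00242.

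The pathway around the ligands was read in the 2 classes with the most Cd274 UMIs, the Ifit-led monocyte-like and the Spp1-led class, with 52 tests in each over 4 lists, and none passed. Of the 52 tests in each class 5 had an unadjusted p under 0.05, with Cd80 counted in 2 lists, against 3.76% and 5.13% of all genes there. By list these were 1 and 2 of 13 in the interferon gamma route, 0 and 0 of 16 other inducers, 1 and 1 of 13 partners of PD-L1, and 3 and 2 of 10 in the B7 and CD28 families. In the interferon gamma route (13 genes, medians 0.0586 and 0.0639) the Spp1-led class had Jak1, a kinase at the interferon receptors, at 0.17 ± 0.11. Jak1 was not 1 of the 2 genes of this list with an unadjusted p under 0.05 in that class, whose values there are not printed. Ifng itself, a gene of T and NK cells, was read at 2.17, 1.92, 3.33 and 5.17 CPM in the Ifit-led class (1.12 ± 0.38), and the part of free RNA in it was not tested. The other inducers (16 genes, medians 0.0247 and 0.0757) had Csf2ra, a receptor chain for GM-CSF, at -0.23 ± 0.11 and -0.23 ± 0.12 in the 2 classes, and Rela at 0.21 ± 0.12 in the Ifit-led class. Irf9 was at 0.21 ± 0.11 and Nfkb2 at 0.28 ± 0.15 in the Spp1-led class.

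Among partners of the PD-L1 protein (13 genes, medians 0.0274 and 0.0291), Cd80 had 28, 33.9, 18.6 and 24.9 CPM in the Ifit-led class (-0.50 ± 0.18) and 49.4, 42.3, 26.7 and 34.8 CPM in the Spp1-led class (-0.58 ± 0.16, unadjusted p = 0.00547, adjusted p = 0.737 by edgeR). Its WT and cKO libraries did not overlap in either class, nor did those of 31.8% of all genes in the Ifit-led and 32.8% in the Spp1-led class. Cmtm6, which keeps PD-L1 at the surface, was at 0.13 ± 0.16 in the Ifit-led class. The other B7 and CD28 family genes (10 tested, medians -0.0226 and 0.0793) share Cd80 with that list and add Cd276, which encodes B7-H3. It had 16.3, 16.7, 8.32 and 9.53 CPM in the Ifit-led class (-0.87 ± 0.17, unadjusted p = 0.000708, adjusted p = 1.00 by edgeR) and a ratio of -0.69 ± 0.25 in the Spp1-led class.

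Genes whose level ran most like each member over the 17 fitted classes were found by Pearson's r of log2(CPM + 1) among 5626 genes, as a description over classes that share libraries. For Pdcd1 these were Camk4 (r = 0.939), the T cell receptor genes Cd3g (0.932), Cd3e (0.929) and Cd3d (0.923), and Serpinb6a (0.924). For Cd274 they were Bcl2a1b (0.865), a survival gene of the BCL2 family, Ssh1 (0.820), Castor1 (0.819), Pcgf5 (0.806) and 1110038F14Rik (0.795). For Pdcd1lg2 they were Stat4 (0.925), the signal carrier of interleukin 12, Rasa2 (0.910), H2-Q6 (0.890), Ccdc6 (0.878) and Rhof (0.872). The ligand genes themselves, although neighbours, reached r = 0.622 with each other.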

How the data were processed

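Single-cell libraries of CD45+ tumour cells, 2 WT and 2 cKO for Ufl1, were analysed from the deposited count matrices. The authors made these raw UMI counts per gene and barcode with Cell Ranger 6.1.1, per the file headers. CASAVA 1.8 and Seurat stand in the submitters' processing notes without a role. The libraries held 7352, 9466, 7885 and 8098 barcodes and 64141857, 77030913, 71702863 and 79747752 UMIs.

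The cell filter asked for 300 genes or more and for no more than 15% of UMIs from mitochondrial genes. Scrublet's automatic threshold called 0 doublets, so the highest scores were removed at 0.8% per 1000 cells (2117 cells). Counts were scaled to 10000 per cell, log-transformed and clustered in scanpy 1.11.5 (2000 variable genes, 30 components, 20 neighbours, Leiden resolution 1, no integration). The 3 genes, Ufl1, receptor segments and sex-linked, mitochondrial and ribosomal genes were left out of the variable genes, and T and NK clusters were clustered again. Classes were named from 21 marker lists, with naming thresholds set after seeing the clusters. Unnamed clusters held 9.69%, 3.57%, 5.82% and 8.00% of cells, and a T cell cluster with C1qa RNA, kept out of the classes, 1.13%, 1.01%, 1.81% and 1.94%.

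Counts were summed per library and class and tested with edgeR 4.0.16 in R 4.3.3 (filterByExpr, TMM, quasi-likelihood test, Benjamini-Hochberg over all genes of the class, threshold 0.05), with DESeq2 1.42.0 as an alternative. Tested on simulated data, edgeR recovered 35% of 2-fold and 98% of 4-fold changes in CD8 T-like sums over 9225 genes. The simulated counts took the typical spread of genes at each level. The spread of Pdcd1 itself (298 and 864 scaled CPM in the WT libraries) was not simulated, so these shares do not speak for it. Other alternatives were no filter on low counts, doublets kept, stricter cell filters (500 genes, 10%), Leiden resolution 2, the 3 genes among the variable genes, a replicate block and leaving out each library. Leaving out the shared barcodes, a crossed block and the pair Pdcd1 with Pdcd1lg2 were chosen after seeing the data, as were the other clusterings for levels.

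The genes named are the 3 members, Ufl1, the 3 genes of each pathway list with the smallest unadjusted p in each class read, the 5 genes most like each member (at least 50 CPM in a class), the genes of the pairs and the markers that name a class. Some of these are summarised and not printed, and Cd3e, Cd3d, Ddx3y and Xist were added for checks. The members and the lists were chosen with earlier results of these data known.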

Additional observations from a re-analysis of the deposited data

Results flagged for a closer look

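Pdcd1lg2 moved in opposite directions in some classes. In cDC2-like cells both cKO libraries were above both WT libraries (log2 ratio 0.52 ± 0.23), whereas in NK-like and in Treg-like cells both cKO libraries were below both WT libraries (-0.21 ± 0.13 and -0.46 ± 0.25). The ratios differed by 0.732 on the log2 scale between cDC2-like and NK-like cells and by 0.98 between cDC2-like and Treg-like cells. The differences themselves were not tested, and none of the 3 ratios passed an adjusted p of 0.05 by edgeR. Within the NK-like class the cluster led by Gzmb went the other way (0.47 ± 0.23), while its other clusters were below 0.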

How the results depend on the processing

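For 72 results, 578 alternative values were computed: 501 kept their direction and side of the threshold, or their size, 48 changed sign, 25 moved and 4 passed a threshold that they had not passed. Causes were not tested. With 2 libraries a group, single libraries moved most ratios, few UMIs were counted of Pdcd1 outside T cells and of Pdcd1lg2 in macrophage-like and Spp1-led cells, and fits without 1 library assume that the lone sample varies like the others.

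Calls among the 3 genes were 0, but 7 without the filter on low counts, where all genes gave 1212 calls against 7; those included Pdcd1 in cycling T-like (0.68, adjusted p = 0.0139) and Cd274 in Spp1-led cells (0.55, adjusted p = 0.0204), by edgeR. Leaving out 1 library gave 0 to 3, and 136 to 974 over all genes, the most without cKO replicate 1. Over all genes DESeq2 gave 68 calls, Leiden resolution 2 gave 122, doublets kept 9 and shared barcodes left out 10.

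The replicate numbers pair nothing by the labels. Deviations of same-numbered libraries correlated at 0.229 in all T-like, 0.16 in CD8 T-like, 0.114 in Ifit-led monocyte-like, -0.109 in macrophage-like and -0.117 in mature DC-like cells. The share of CD8 T-like cells also went with the number (2.41% and 2.06% in replicates 1, 6.15% and 6.53% in replicates 2). With the replicate block Pdcd1 was at 0.16 in CD8 T-like and 0.25 in all cells, and all genes gave 132 calls. With the crossed replicate block they gave 228, none of them a member.

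Other log2 ratios that changed sign were Pdcd1 in CD8 T-like cells with doublets kept (0.0154), Cd274 in CD8 T-like cells with doublets kept (-0.10) and stricter filters (-0.030), Cd274 in NK-like cells without shared barcodes (-0.018), and Cd274 in Treg-like cells (-0.00), which was 0.16 with doublets kept, 0.14 with stricter filters, 0.040 with the genes among the variable genes and 0.036 without shared barcodes. The cKO minus WT total of Pdcd1 over all deposited barcodes was -0.143 CPM against 0.332.

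Leaving out 1 library, the ratios of Pdcd1 ran from -0.59 to 0.96 in CD8, -0.17 to 0.64 in Treg, 0.0086 to 1.54 in cycling and -0.20 to 0.48 in gamma-delta T-like cells, and -0.79 to 1.52 in all cells. Those of Cd274 ran from -0.15 to 0.31 in CD8 T-like, -0.041 to 0.14 in Ifit-led, -0.086 to 0.12 in NK-like, -0.23 to 0.19 in Treg-like, -0.14 to 0.56 in mature DC-like and -0.25 to 0.85 in non-classical monocyte-like cells. Those of Pdcd1lg2 ran from -0.62 to 0.60 in mature DC-like cells and -0.33 to 0.050 in all cells. Differences in the percent of cells with a UMI (cKO minus WT) ran from -10.5 to 23.1 for Pdcd1 in CD8 T-like, -2.72 to 13.1 for Pdcd1 in Treg-like, -16.2 to 3.51 for Cd274 in mature DC-like, -0.981 to 9.62 for Cd274 in Treg-like and -4.31 to 10.1 for Pdcd1lg2 in mature DC-like cells. Differences in totals ran from -33.8 to 34.5 CPM for Pdcd1 and -3.50 to 0.852 CPM for Pdcd1lg2. Interactions ran from -0.50 to 0.33 (Pdcd1, CD8 minus Treg), -0.71 to 0.79 (Pdcd1, CD8 minus gamma-delta), -0.11 to 0.63 (Cd274, mature DC minus Treg), -0.16 to 0.54 (Cd274, mature DC minus Ifit-led), -0.089 to 1.02 (Pdcd1lg2, mature DC minus Treg) and -0.43 to 0.92 (Pdcd1lg2, mature DC minus NK). The interferon gamma and B7 lists in Spp1-led cells had 0 to 1 calls.

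Thinned, the ratio of cells with both ligand genes over expected was 0.793 in mature DC-like (1.04 with doublets kept), 2.45 in cDC2-like, 2.32 in Spp1-led and 1.45 in NK-like cells, and that of Pdcd1 with Cd274 in CD8 T-like cells 0.961. In CD8 T-like cells Pdcd1 with Lag3 gave 1.33 thinned, 1.10 with doublets kept and 1.05 within clusters; with Havcr2 1.31, 1.09 and 1.01; with Tigit 1.18, 1.05 and 1.04; and with Ctla4 1.31 thinned. By Spearman's rho 0, 1 and 2 of the 5 genes most like Pdcd1, Cd274 and Pdcd1lg2 were shared.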

Other observations

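Clusters left without a name carried the 3 genes as well. A shallow T cell cluster led by Inpp4b and Themis (372 cells, median 2469 UMIs) had Pdcd1 at 289, 914, 465 and 765 CPM, with the libraries in the same order as in CD8 T-like cells, and Cd274 at 184 CPM. A cluster of shallow myeloid cells led by Neat1 and Vcan (973 cells, median 1666 UMIs) had Cd274 at 129, 180, 184 and 195 CPM, above the monocyte-like class in every library. The T cell cluster with C1qa RNA (441 cells) supplied 6.0% of Pdcd1 UMIs. Of the NK-like clusters, the one led by Gzmc and Xcl1 (780 cells) had Pdcd1lg2 at 73.8, 58.9, 61.0 and 58.2 CPM, and in cKO replicate 2 it held 54 UMIs of Pdcd1 in 5 cells.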
